A study of Homo sapiens with 18 samples.

Results

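SKMEL30 cells that had carried an induced PPP2R3B transgene for 18 h were compared with the same cells after 6 h, as 3 libraries of each, taken by their labels. These are 6 of the 18 RNA sequencing libraries in the series. SKMEL30 is an NRAS-mutant human melanoma line, and it was given PPP2R3B in the tet-ON lentiviral vector pTRIPZ and selected with puromycin. Doxycycline, which switches the vector on, was added to both groups, so the comparison shows how expression moved with time once the transgene was on. The remaining SKMEL30 libraries are 3 of uninduced cells, and the other 9 libraries repeat the design in SKMEL2, another NRAS-mutant melanoma line. No library came from cells given doxycycline without the PPP2R3B insert. Time under induction, time under doxycycline and time in culture therefore cannot be told apart. No uninduced library is labelled with an hour of harvest. In comparisons with uninduced cells, doxycycline and the transgene likewise cannot be told apart. The labels give 18 hours, whereas the text of the study names a slightly shorter later time, and the hour of the labels is used here.

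PPP2R3B encodes PR70, a regulatory subunit of the phosphatase PP2A. PP2A takes phosphate groups off a wide range of proteins, and its regulatory subunits set which substrates it meets, among them proteins of DNA replication and the cell cycle. C21orf91 is a little-studied gene that the study placed downstream of PPP2R3B in pigment cells. Cyclin D1, encoded by CCND1, lies at the meeting point of growth signals and the cell cycle in melanoma, since RAS and ERK signalling raises it and it drives cells out of G1.

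The libraries carried the marks of the pigment lineage. PMEL, a protein of the pigment granule, lay between 4830 and 5240 CPM in all 6 (CPM are counts scaled to the size of the library), and MLANA, TYR, DCT, SOX10, MITF, PAX3 and S100B were all detected at 35.5 or more. Total expected counts ran from 13402645 to 22100405 at 6 h and from 15552537 to 19169085 at 18 h. Pairs of replicates differed by more than counting noise (chi-square per degree of freedom 2.08 to 5.63), so none was treated as a library deposited more than once. The labels do not say that replicates were separate cultures, and the p-values measure the spread between these samples, which may be technical. Replicate 3 of each induced SKMEL30 group stood apart within the line in genes of epidermal keratinocytes. KRT5, a keratin of basal epidermis, had expected counts of 38.2, 1 and 803 at 6 h and of 4, 0 and 118 at 18 h. Its partner KRT14 had 27, 4 and 566 at 6 h and 5, 1 and 75.8 at 18 h. Scaled to the library, KRT5 in replicate 3 was 36.2 CPM at 6 h and 6.25 at 18 h. SKMEL2 also held KRT5, with 8.65, 5.41 and 3.73 CPM in uninduced cells. There it was 0.17, 0 and 4.25 at 6 h and 6.07, 7.76 and 0 at 18 h. In the 6 SKMEL30 libraries the late epidermal keratin KRT1 was at 0, and TP63 had at most 13 expected counts. The summed level of the 3 keratinocyte markers tested was 18.8 to 80.5 CPM at 6 h and 17.6 to 29.4 at 18 h. KRT10, the third of them, did not follow replicate 3, with 16.9 to 18.8 CPM at 6 h and 17.1 to 19.8 at 18 h. It made up most of the sum where KRT5 and KRT14 were near 0. Of 5 fibroblast markers only LUM passed the filter on low counts (28.0 to 31.4 CPM), and of the blood and endothelial markers only VWF did, while CD3E was at 0. In RNA from whole cultures, fewer cells of a kind and less RNA per cell cannot be told apart.

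Few genes differed between 6 h and 18 h in SKMEL30. Of 15026 genes tested, 3 passed an adjusted p of 0.05 (0.02%), and all 3 were lower at 18 h: SKAP1, CCND1 and MYOF. No gene was called higher by edgeR. The test was edgeR's quasi-likelihood test with Benjamini-Hochberg adjustment over all genes tested, in a fit of the 9 SKMEL30 libraries. The median log2 fold change over all genes was -0.00, and of the 9422 genes with a mean above 10 CPM, 95% lay between -0.12 and 0.13. Their median standard error was 0.05. An unadjusted p under 0.05 was reached by 835 genes (5.56%), 412 higher and 423 lower (2.74% and 2.82%). In 11.2% of genes the 3 libraries at 18 h did not overlap the 3 at 6 h, with 5.48% above and 5.76% below. A log2 fold change beyond 1 in either direction was seen in 115 genes, of which 91 had a mean level under 2 CPM.

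**Figure D1:**
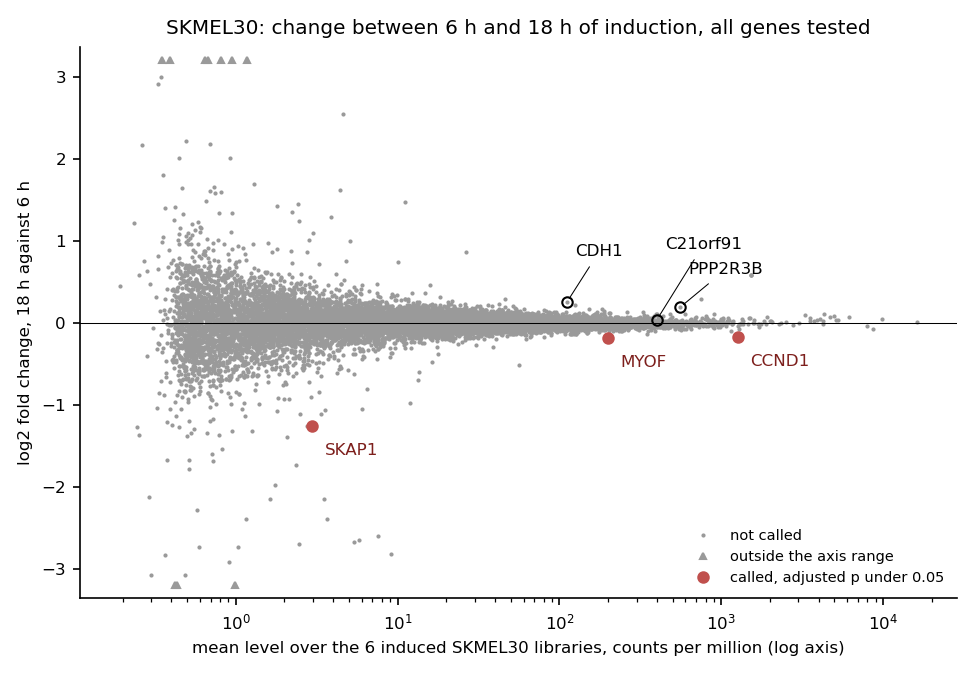
Log2 fold change of SKMEL30 at 18 h against 6 h of induction (vertical axis) by mean level over the 6 induced libraries in CPM (horizontal, log axis) for the 15026 genes tested, with triangles for values outside the axis range. The 3 called genes (filled, red) all lie below 0, CCND1 and MYOF among abundant genes where most changes are small and SKAP1 at a low level. CDH1, PPP2R3B and C21orf91 (open circles) were not called by edgeR.

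SKAP1 fell the furthest of the called genes. It encodes an adaptor protein best known from T cell receptor signalling and adhesion, and lies on chromosome 17 (GRCh38.p14, 48133442 to 48445061). Its level was 4.29, 4.28 and 4.06 CPM in the 6 h libraries and 1.62, 1.54 and 2.06 in the 18 h libraries, after 9.45, 11.1 and 8.43 in uninduced cells. No library of any group overlapped another group. The log2 fold change from 6 h to 18 h was -1.26 (SE 0.17, 95% interval -1.62 to -0.90, adjusted p = 0.0287), a level 0.418 times that at 6 h. It was already lower at 6 h than in uninduced cells (log2 fold change -1.20, adjusted p = 0.00039), and the value at 18 h against uninduced cells was -2.46. These 3 comparisons share libraries, so they are not independent. The level is low: the 18 h values rest on 31, 24 and 39 expected counts, and those at 6 h on 57, 89 and 90. Genes annotated within the span of SKAP1 that the table also lists had at most 1 count in any of the 6 libraries.

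CCND1 fell by a small step from a high level. Its gene is on chromosome 11 (69641156 to 69654474), and no other annotated gene overlaps it. Uninduced libraries read 1349, 1362 and 1370 CPM, the 6 h libraries 1332, 1352 and 1336, and the 18 h libraries 1162, 1194 and 1208. The 6 h values lay within or just under the uninduced ones, whereas all 3 at 18 h lay below both groups. The log2 fold change from 6 h to 18 h was -0.17 (SE 0.02, 95% interval -0.22 to -0.12, adjusted p = 0.0287). Against uninduced cells it was -0.02 at 6 h, which was not called, and -0.20 at 18 h, which was called (adjusted p = 0.000936).

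MYOF followed a similar course. It encodes myoferlin, a membrane protein that takes part in membrane repair and vesicle fusion, on chromosome 10 (93306429 to 93482334). Its levels were 224, 223 and 220 CPM in uninduced cells, 215, 206 and 214 at 6 h and 186, 187 and 185 at 18 h. The 18 h libraries lay close to each other and under every other SKMEL30 library. From 6 h to 18 h the log2 fold change was -0.19 (SE 0.03, 95% interval -0.24 to -0.13, adjusted p = 0.0381). Against uninduced cells it was -0.07 at 6 h, not called, and -0.26 at 18 h, called.

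The size of these 3 decreases held, but their calls depended on the fit. Over 16 alternative settings the log2 fold change stayed between -1.43 and -1.18 for SKAP1, between -0.19 and -0.16 for CCND1 and between -0.20 and -0.17 for MYOF. Each was called in 8 of the 16, among them the fit with no filter on low counts, which called 197 genes. With only the 6 libraries compared in the fit none of the 3 was called (adjusted p = 0.0778, 0.0778 and 0.111), nor with all 18 libraries (0.532, 1 and 1). Leaving out replicate 2 or 3 of the 18 h group, or replicate 3 of the 6 h group, left 0 genes called. Without replicate 1 of the 18 h group none of the 3 was called (adjusted p = 0.145 for each), without replicate 1 of the 6 h group MYOF was lost (0.122), and without replicate 2 of the 6 h group SKAP1 and CCND1 were lost (0.0571 for both). Without the 2 libraries with the most KRT5 counts, which was tried after seeing the data, the values were -1.43, -0.19 and -0.17 and none passed (0.162, 0.185 and 0.578). DESeq2, the tool the study used, called 12 genes on the same libraries. These 12 were the 3 above, RGPD6, PRNP and ENSG00000279232 lower, and CDH1, PPP2R3B, TRIM2, MT-CYB, MT-ND3 and PKM higher.

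**Figure D2:**
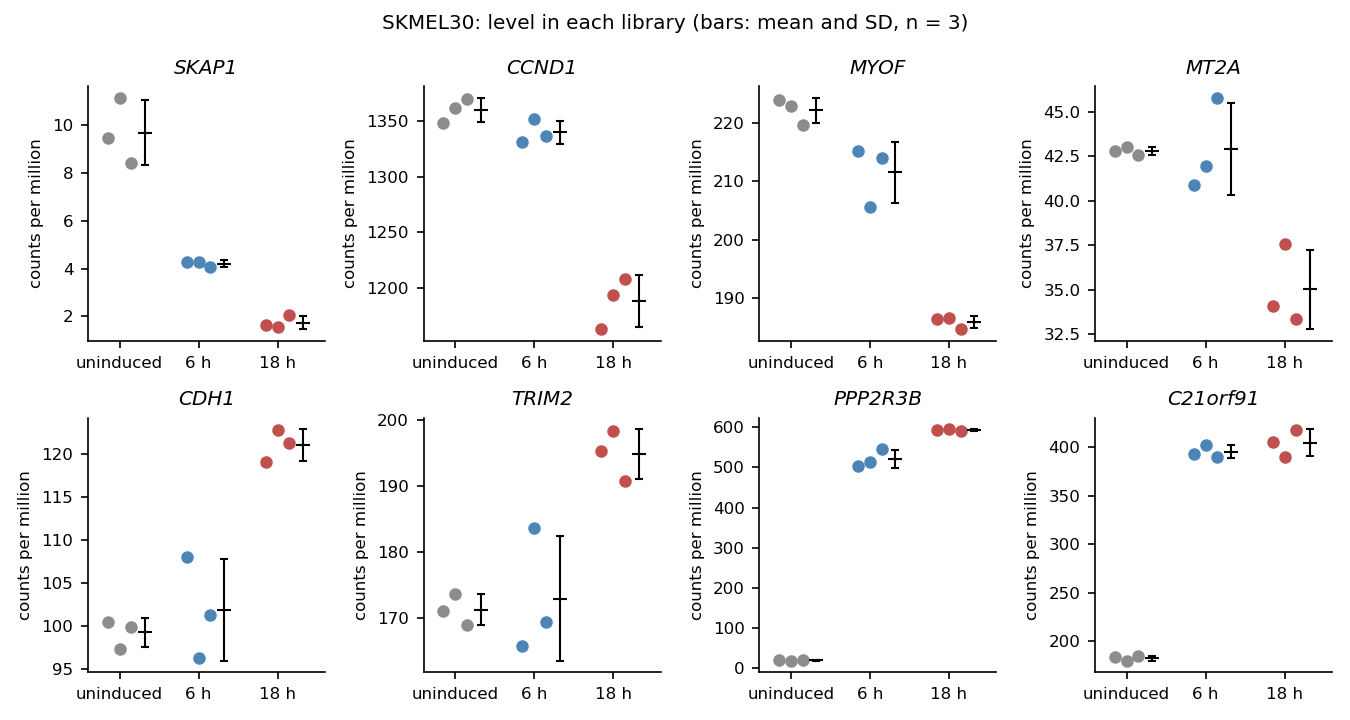
Level of 8 genes in each SKMEL30 library, in CPM on a vertical axis of its own that does not start at 0, for uninduced cells and for 6 h and 18 h of induction. Points are libraries and black marks are the mean and SD of 3. SKAP1, CCND1 and MYOF are the called genes, and MT2A, CDH1, TRIM2, PPP2R3B and C21orf91 were not called between 6 h and 18 h by edgeR. In the first 7 panels the 18 h points do not overlap the 6 h points, as in 11.2% of all genes. These 7 were among the genes with the smallest p in this comparison, so their separation is not independent of that choice.

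The genes nearest to the threshold on the higher side were not called by edgeR. CDH1 encodes E-cadherin, the adhesion protein through which melanocytes hold on to keratinocytes. Its levels were 108, 96.2 and 101 CPM at 6 h and 119, 123 and 121 at 18 h, with 100.5, 97.3 and 99.9 in uninduced cells. The log2 fold change was 0.25 (SE 0.04, 95% interval 0.17 to 0.34), and its adjusted p of 0.0526 by edgeR's test just missed the threshold. Every 18 h library lay above every other one of the line. CDH1 was called in 6 of 16 alternative settings, among them DESeq2 (adjusted p = 0.000377), the replicate block (0.034) and upper quartile scaling (0.0408). A minimum of 10 counts in every library (0.0221) and the fit without replicate 1 of the 6 h group (0.0255) also called it. The remaining setting was the fit with no filter on low counts, which called 197 genes. CDH1 was not called with only the 6 libraries compared (0.111) or with all 18 in 1 fit. Without the 2 libraries with the most KRT5 counts it was not called either (0.694). TRIM2, a ubiquitin ligase gene, had a log2 fold change of 0.17 (adjusted p = 0.366 by edgeR and 0.0493 by DESeq2), and TMEM255A had 0.23 (0.378).

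Lower but not called by edgeR were genes of several kinds. MT2A, a metallothionein that binds zinc and copper, had 40.9, 42.0 and 45.8 CPM at 6 h and 34.1, 37.6 and 33.4 at 18 h (log2 fold change -0.30, SE 0.05, adjusted p = 0.141). Its groups did not overlap. PRNP, which encodes the prion protein, had -0.14 (0.209, and 0.0114 by DESeq2), and NKD1, an inhibitor of WNT signalling, had -0.37 (0.459). ENSG00000279232, which has no symbol, had -1.11 (0.141 by edgeR, 0.0149 by DESeq2 and 0.0257 with the replicate block), from 5.12, 3.80 and 5.01 CPM to 1.78, 2.06 and 2.54. PCDHGA9, one of the clustered protocadherins, had -1.69 (0.512) at about 1 CPM or less.

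Several of the largest changes belong to genes that share sequence with another, where the estimation of counts divides the reads. RGPD6 had a log2 fold change of -0.51 (adjusted p = 0.0526) and its near-identical copy RGPD5 had 0.86 (0.163). Summed over both, the level was 80.4, 91.9 and 83.0 CPM at 6 h and 84.6, 76.5 and 81.4 at 18 h, and the groups overlapped (log2 difference -0.07). The readthrough genes PEDS1-UBE2V1 and CORO7-PAM16 were at 0 in the 3 libraries at 6 h and between 0.901 and 3.72 CPM at 18 h. With the genes they run into added, the log2 difference was -0.01 for the first and 0.03 for the second, and it was 0.03 for POC1B-GALNT4 with POC1B and GALNT4. C4A, a complement gene, had a log2 fold change of 2.997 (adjusted p = 0.156) at under 1 CPM. Together with its copy C4B it ran from 0.890 to 1.35 at 6 h and from 1.36 to 1.48 at 18 h. These genes are reported as uncertain.

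The transgene itself stayed on. PPP2R3B was at 503, 512 and 546 CPM at 6 h and at 594, 594.5 and 591 at 18 h, against 21.6, 19.1 and 19.8 in uninduced cells. The table does not separate the vector from the cell's own gene. All 18 h libraries lay above all 6 h libraries, and the log2 fold change between them was 0.19 (SE 0.03, 95% interval 0.12 to 0.26). That difference was not called (adjusted p = 0.141), although DESeq2 called it at nearly the same size (0.19, adjusted p = 4.39e-05). Against uninduced cells the log2 fold change was 4.69 at 6 h and 4.88 at 18 h.

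C21orf91 showed no detectable difference over the same hours. It read 393, 402.5 and 390 CPM at 6 h and 406, 390 and 418 at 18 h, and 183, 179.6 and 184.5 in uninduced cells. The groups at 6 h and 18 h overlapped (log2 fold change 0.03, SE 0.03, adjusted p = 0.964). The 95% interval, -0.03 to 0.10, holds 0 and leaves room for a small difference in either direction. Against uninduced cells the log2 fold change was 1.12 at 6 h and 1.15 at 18 h, both called. Without the 2 libraries with the most KRT5 counts the change from 6 h to 18 h was -0.000511.

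Genes that differed from uninduced cells were also followed from 6 h to 18 h. Against uninduced cells 31 genes were called at 6 h (0.206%) and 44 at 18 h (0.293%), 55 in all, and of these 55 the 3 named above were called between 6 h and 18 h by edgeR, against 0.02% of all genes. An unadjusted p under 0.05 between the times was reached by 34 of the 55, against 5.56% of all genes. The 55 were chosen on these same 6 h and 18 h libraries, so neither count is independent of that choice. SLC25A36, a mitochondrial carrier of nucleotides, was 272.9 ± 14.7 CPM at 6 h and 259.6 ± 11.8 at 18 h (SD, n = 3), with 182 ± 1.6 in uninduced cells. UNC5C, a receptor for the guidance molecule netrin, was 12.8 ± 0.791 and 14.6 ± 1.95 after 5.04 ± 0.272. In both genes the 6 h and 18 h libraries overlapped, with log2 fold changes of -0.07 for SLC25A36 (adjusted p = 0.919) and 0.20 for UNC5C (0.913). CCN1, a matricellular gene driven by YAP, had 15.96, 18.31 and 14.93 CPM at 6 h and 20.5, 18.9 and 21.7 at 18 h, after 28.4 ± 0.608 in uninduced cells (SD, n = 3). Its level at 18 h lay between those of the other groups in every library, with a log2 fold change from 6 h of 0.31 (SE 0.08, adjusted p = 0.551). SKAP1 was the only 1 of the genes plotted to be called between the times by edgeR. Among them DESeq2 called SKAP1, PPP2R3B, MT-CYB and MT-ND3.

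**Figure D3:**
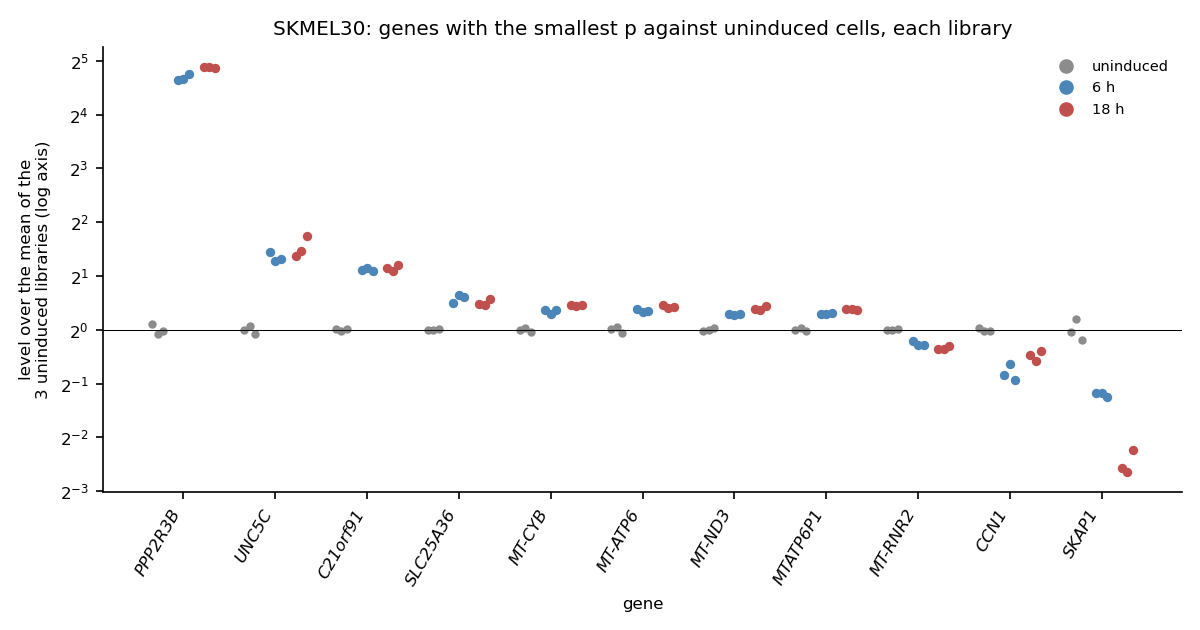
Level of 11 genes among those with the smallest p against uninduced cells, in each SKMEL30 library divided by the mean of the 3 uninduced libraries (vertical, log axis). Grey, blue and red points are uninduced, 6 h and 18 h libraries. C21orf91 overlaps between 6 h and 18 h. PPP2R3B and the mitochondrial genes differ little in height between the times, though their 6 h and 18 h libraries do not overlap. MTATP6P1, plotted among them, lies on chromosome 1 and shares reads with MT-ATP6. CCN1 is nearer to the uninduced level at 18 h, and SKAP1 is lower at 18 h than at 6 h.

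MITF, the master regulator of the pigment lineage, did not pass in any of these comparisons. It had 760, 770 and 733 CPM at 6 h and 735, 736 and 762 at 18 h (log2 fold change -0.02, SE 0.03, adjusted p = 0.992). Of 16 pigment genes 0 were called, with 8 above and 8 below 0. DCT, an enzyme of melanin synthesis, had 0.10 (adjusted p = 0.565), and the transporter SLC45A2 had -0.10 (0.568). In the list of 13 melanocyte lineage factors 0 were called. LEF1, a transcription factor of WNT signalling, had 160, 162 and 167 CPM at 6 h and 179, 180 and 177 at 18 h (0.13, adjusted p = 0.434). LIF, a cytokine of the interleukin 6 family, had 47.7, 45.6 and 51.2 at 6 h and 53.7, 54.9 and 58.5 at 18 h, with no overlap (0.21, adjusted p = 0.557).

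Genes of the cell cycle lay on the low side as a group, though no member of the G1/S or the mitosis list was called. CCND1, which was called, is in the list of immediate early and ERK output. In the list for DNA replication and G1/S, 29 of 29 genes had a log2 fold change below 0, with a median of -0.06, against 7594 of 15026 below 0 and a median of -0.00 over all genes. An unadjusted p under 0.05 was reached by 10 of the 29, all lower, against 2.82% lower over all genes. CCNE2, a cyclin of S phase entry, had 25.9, 28.3 and 27.5 CPM at 6 h and 24.4, 22.6 and 22.3 at 18 h (log2 fold change -0.24, SE 0.06, adjusted p = 0.557). RRM2, a subunit of ribonucleotide reductase, had 405, 405 and 405 at 6 h and 368, 374 and 395 at 18 h (-0.10, adjusted p = 0.771). Summed over the list, the level was 4323, 4260 and 4296 CPM at 6 h and 4080, 4125 and 4109 at 18 h, after 4307, 4303 and 4415 in uninduced cells. The 18 h sums lay below all others. Members of 1 list move with each other and are not independent.

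In the list for mitosis and G2/M, 29 of 31 genes were below 0, with a median of -0.08. An unadjusted p under 0.05 was reached by 11, all lower, against 2.82% lower over all genes. BUB1B, a kinase of the spindle checkpoint, had 66.0, 67.9 and 65.3 CPM at 6 h and 57.9, 56.7 and 59.2 at 18 h (log2 fold change -0.20, SE 0.04, adjusted p = 0.264). CDK1, the kinase that starts mitosis, had -0.12 (SE 0.03, adjusted p = 0.622). Genes above 0 were PTTG1 (0.03) and CDC25C (0.04). The list sums were 4812, 5334 and 4932 at 6 h and 4680, 4830 and 4900 at 18 h, and these overlapped. Replicate 2 at 6 h was the highest of the 9 libraries. Over the alternative settings 23 to 29 of the G1/S genes and 24 to 30 of the mitosis genes were below 0. The medians against uninduced cells were -0.02 at 6 h and -0.10 at 18 h for G1/S, and 0.02 and -0.06 for mitosis.

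**Figure D4:**
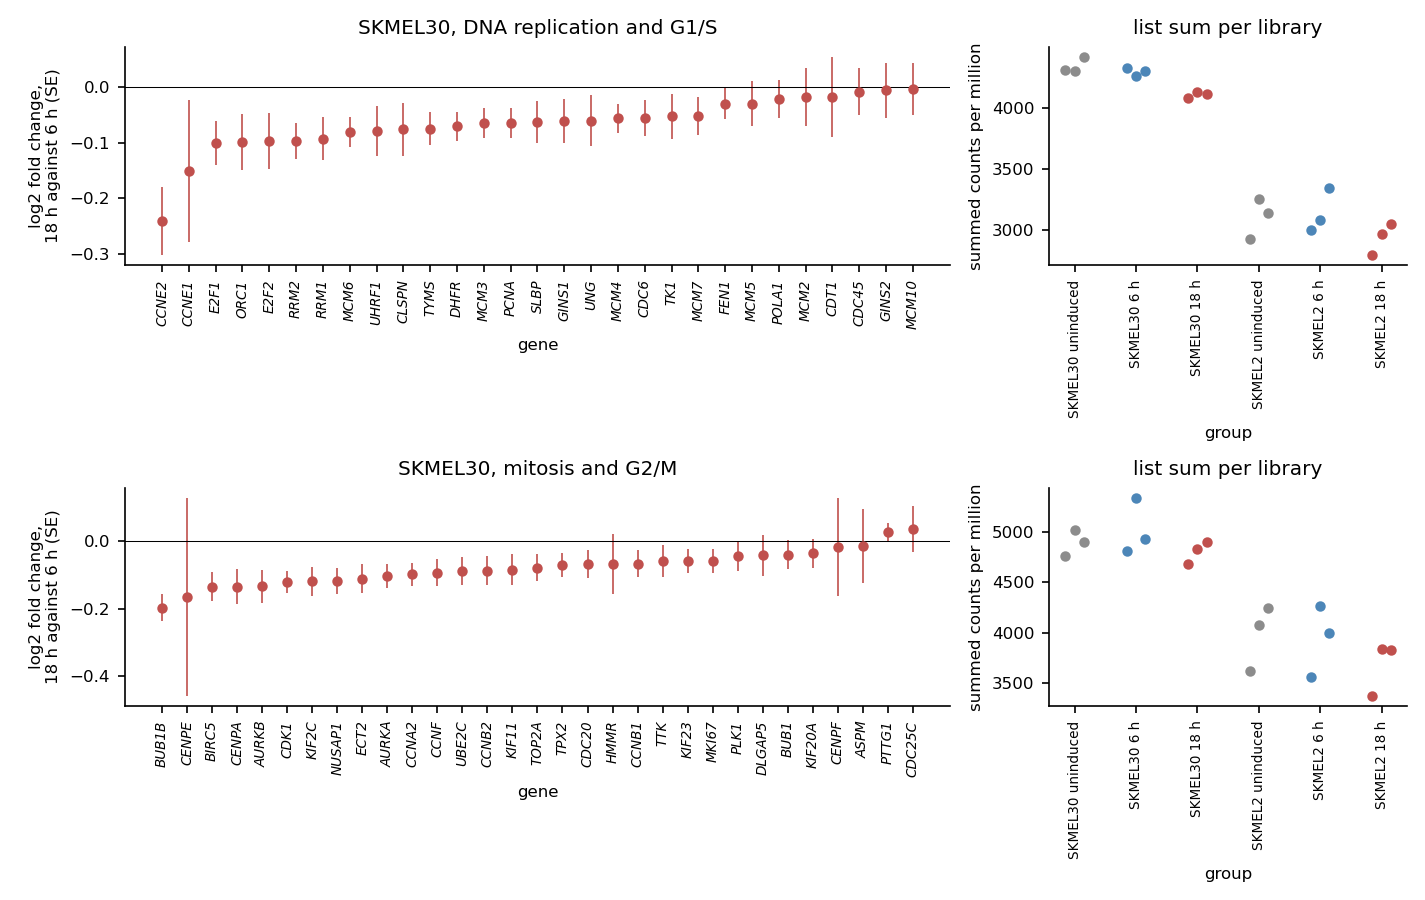
Left, log2 fold change at 18 h against 6 h with its standard error for each gene tested of the DNA replication and G1/S list (top, 29 genes) and the mitosis and G2/M list (bottom, 31 genes) in SKMEL30. Right, the summed level of each list in every library of both lines, in CPM on an axis that does not start at 0. All 29 genes at the top and 29 of 31 at the bottom lie below 0, while the SKMEL30 sums at 18 h lie below those at 6 h for the first list and overlap them for the second.

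No other list held a gene called by edgeR, apart from CCND1 among 24 genes of the immediate early and ERK output. DESeq2 also called PKM, a glycolytic enzyme gene (log2 fold change 0.10, adjusted p = 0.0428, and 0.557 by edgeR), MT-CYB and MT-ND3 of the mitochondrial genome, and PPP2R3B in the list of PP2A subunits. In the ERK list 13 genes were above and 11 below 0 (median 0.00). Its summed level was 3604 to 3651 CPM at 6 h and 3427 to 3550 at 18 h, without overlap, of which CCND1 alone made up a mean of 1340 at 6 h and 1188 at 18 h. YAP and TEAD targets had 11 of 19 above 0 (median 0.05), and ANKRD1 among them had 1.43, 1.35 and 1.04 CPM at 6 h and 2.88, 1.87 and 2.22 at 18 h (log2 fold change 0.90, SE 0.24, adjusted p = 0.598). Targets of TGF-beta and BMP signalling had 10 of 15 above 0 (median 0.07), with ID2, an inhibitor of differentiation factors, at 0.15 (adjusted p = 0.771). Their summed level was 579.8 to 589.7 CPM at 6 h and 602.7 to 610.4 at 18 h. Genes of protein folding in the endoplasmic reticulum had 15 of 20 above 0 (median 0.04), with sums of 7027 to 7109 at 6 h and 7181 to 7351 at 18 h, and CRELD2 at 0.17 (adjusted p = 0.771). FOXO and glucose-sensing targets had 14 of 18 above 0 (median 0.04) and 0 with an unadjusted p under 0.05. NF-kB targets and cytokines had 11 of 14 below 0 (median -0.06).

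Of 27 interferon genes 24 were above 0, with a median of 0.07, and 1, IFIT2, had an unadjusted p under 0.05 (log2 fold change 0.21, adjusted p = 0.771). The summed levels were 1613, 1727 and 1311 CPM at 6 h and 1338, 1783 and 1753 at 18 h. The groups overlapped widely, and the median over alternatives ran from -0.09 to 0.18.

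Ribosomal protein genes (24 of 81 above 0, median -0.01), nuclear genes of the respiratory chain (44 of 78, 0.01), cholesterol synthesis (11 of 24, -0.01), glycolysis (17 of 28, 0.01), the amino acid response through ATF4 (11 of 24, -0.01), p53 targets (7 of 22, -0.01) and matrix and adhesion genes (14 of 27, 0.01) had medians near that of all genes. Other lists close to 0 were fatty acid synthesis (4 of 10 above 0, -0.01), cytosolic chaperones (8 of 17, -0.00), lysosome and autophagy (9 of 18, 0.00), NRF2 targets (9 of 13, 0.01), MYC and ribosome biogenesis (7 of 18, -0.00), SRF and the actin cytoskeleton (8 of 14, 0.01) and mitochondrial stress (2 of 11, -0.02). WNT response genes had 5 of 12 above 0 (-0.02), with LEF1 and NKD1 on opposite sides, and the metallothionein list had 3 of 5 above 0 (0.07). Clock genes had 10 of 18 above 0 (0.02), and in that list PER3 had -0.12 (adjusted p = 0.552) and PER2 had -0.24 (0.803).

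**Figure D5:**
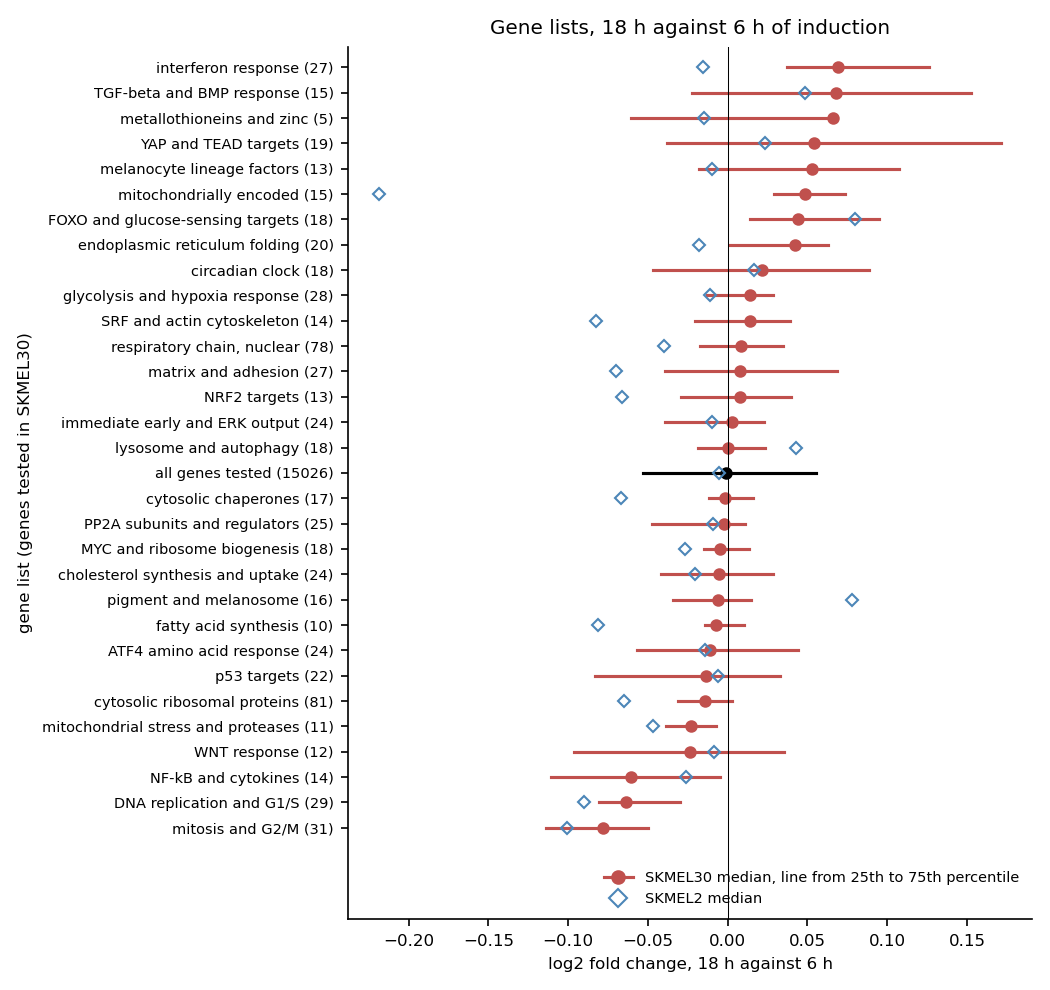
Median log2 fold change at 18 h against 6 h for 30 gene lists and for all genes tested, with the number of genes tested in SKMEL30 in brackets. Red points and lines are the median and the 25th to 75th percentile in SKMEL30, open blue diamonds are the SKMEL2 medians, and the black line is all genes. The medians in SKMEL30 run from -0.08 for mitosis to 0.07 for interferon genes. Those of the mitochondrially encoded genes lie on opposite sides of 0 in the lines, but their summed levels overlap between the times in both.

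The genes of the mitochondrial genome encode core subunits of the respiratory chain and the ribosomal RNAs of the organelle. Of 15, 14 were above 0 (median 0.05). By edgeR 0 were called. At an unadjusted p under 0.05 there were 5 higher and 1 lower, against 2.74% higher and 2.82% lower over all genes. DESeq2 called 2 of the 15, MT-CYB and MT-ND3, against 12 of 15026 over all genes. MT-CYB, a subunit of complex III, had 4255, 4039 and 4210 CPM at 6 h and 4517, 4451 and 4529 at 18 h (log2 fold change 0.11, SE 0.03, adjusted p = 0.434 by edgeR and 0.00864 by DESeq2). MT-ND3, of complex I, had 868, 854 and 871 at 6 h and 922, 916 and 963 at 18 h (0.11, adjusted p = 0.528 by edgeR and 0.013 by DESeq2). Both sets were without overlap. The ribosomal RNA gene MT-RNR2 was the member below 0 (-0.07, SE 0.02, adjusted p = 0.74), with 9132, 8651 and 8713 at 6 h and 8299, 8305 and 8552 at 18 h. The share of all counts from these genes was 7.22%, 7.04% and 6.99% at 6 h and 7.29%, 7.23% and 7.21% at 18 h. An exact permutation test over the 6 libraries gave p = 0.2 (two-sided), where 0.1 is the smallest p that 3 libraries against 3 allow.

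No PP2A subunit was called between 6 h and 18 h by edgeR, and DESeq2 called PPP2R3B only. Of 25 subunits and regulators 10 were above and 15 below 0 (median -0.00). The catalytic subunits PPP2CA and PPP2CB had -0.002 and -0.001, the scaffold subunits PPP2R1A and PPP2R1B had -0.05 and -0.11, and PPP2R3C, a relative of PPP2R3B, had -0.10 (adjusted p = 0.936). Across the list the members other than PPP2R3B ran from -0.11 for PPP2R1B to 0.07 for LCMT1, a methyltransferase that acts on the catalytic subunit.

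In SKMEL2 the same comparison gave 0 called genes of 16120 by edgeR's test, with 418 at an unadjusted p under 0.05 (2.59%), and DESeq2 called 5. The difference between the lines was tested directly in a fit of all 18 libraries and gave 0 called genes of 17133, with 627 at an unadjusted p under 0.05 (3.66%), and DESeq2 called 2. For CCND1 the log2 fold change in SKMEL2 was -0.01, and SKMEL30 less SKMEL2 gave -0.17 (95% interval -0.29 to -0.04, adjusted p = 1). For MYOF it was -0.40 in SKMEL2 (adjusted p = 1), with a difference between lines of 0.21 (-0.17 to 0.59). SKAP1 had at most 6 expected counts in any SKMEL2 library and was not tested in that line alone, and in the fit of both lines its difference was 0.25 (-1.04 to 1.54). PPP2R3B had 0.15 and C21orf91 had 0.16 in SKMEL2, neither called. The smallest p for a difference between lines belonged to RGPD6 (-0.76), LIF (0.50) and C4A (3.38), all with an adjusted p of 1.

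The cell cycle lists were also low in SKMEL2, with 28 of 29 G1/S genes (median -0.09) and 28 of 31 mitosis genes (median -0.10) below 0, while 8391 of 16120 genes lay below 0 over the whole table. Other lists leaned the same way in that line, with 16 of 17 cytosolic chaperones, 71 of 81 ribosomal protein genes, 21 of 25 matrix and adhesion genes and 11 of 13 SRF and actin genes below 0, so the direction was not particular to the cell cycle lists. The cell cycle library sums overlapped between the times in that line. For G1/S they were 2998, 3084 and 3344 CPM at 6 h and 2795, 2967 and 3045 at 18 h. Mitochondrially encoded genes had a median of -0.22 in SKMEL2, with 15 of 15 below 0 and 0 called. Their sums in that line were 66930, 89410 and 73140 CPM at 6 h and 66870, 63040 and 68370 at 18 h. The times overlapped, and replicate 2 at 6 h was well above the rest. Over the 14079 genes tested in both lines the log2 fold changes had a Pearson r of -0.144 and a Spearman rho of 0.0133. Over the 9365 of them above 10 CPM in SKMEL30 these were 0.0542 and 0.0299. These are descriptions across genes, which are not independent replicates.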

How the data were processed

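RNA was extracted with the RNeasy kit and made into 18 libraries with the KAPA mRNA HyperPrep kit. The authors trimmed reads, aligned them with STAR to Ensembl's GRCh38 transcripts and estimated gene counts with RSEM (RSEM 1.3.0 and SAMtools 1.8 in the submitters' processing notes). They deposited expected counts for 58051 genes, with no scaling for depth. Of these values 12.3% are not whole, since RSEM divides reads that fit several genes. Whether counting used strand is not given in the sources used here. Each column carries the title of 1 sample.

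Expected counts were rounded and tested in R 4.3.3 with edgeR 4.0.16 (filterByExpr, TMM scaling, glmQLFit and glmQLFTest). The 9 SKMEL30 libraries were fitted together by group, SKMEL2 likewise, and the difference between lines in all 18. A gene was called where its Benjamini-Hochberg adjusted p was under 0.05. CPM are scaled by TMM, and those of marker genes by the library total. Symbols were matched for 55604 genes (95.8%), and coordinates are from RefSeq GRCh38.p14. The steps were tested on simulated counts.

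Genes named are PPP2R3B, C21orf91, MITF, SLC25A36, LIF and CCND1, the 10 with the smallest p in each direction, the called members of each list or else its 2 smallest p, the 3 smallest p between lines, and the 10 with the smallest p among those called at each time against uninduced cells. Some results under this rule are not reported here. PTTG1, CDC25C, LCMT1 and PP2A subunits outside this rule were chosen after their values were seen. Members and lists were chosen with earlier results of these data known. Alternatives were RLE and upper quartile scaling, DESeq2 1.42.0, no filter, a minimum of 10 counts everywhere, a fit of the 6 libraries alone or of all 18, a replicate block, thinning to the smallest total, leaving out each library and, added after seeing the data, leaving out the 2 libraries with the most KRT5 counts.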

Additional observations from a re-analysis of the deposited data

How the results depend on the processing

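The number of genes called between 18 h and 6 h in SKMEL30, 3 in the fit reported, was 3 with RLE scaling, 4 with upper quartile scaling, 3 after thinning, 5 with at least 10 counts in every library, 12 with DESeq2 (6 higher and 6 lower, the 3 among them) and 197 with no filter (86 higher and 111 lower, of which 70 are genes the filter leaves out). It was 0 with only the 6 libraries compared (768 at an unadjusted p under 0.05), 0 with all 18 in 1 fit (486) and 0 without the 2 libraries with the most KRT5 counts (783), and 0 to 5 when 1 library was left out: 0 without replicate 2 or 3 at 18 h (735 and 763 at an unadjusted p under 0.05) or replicate 3 at 6 h (868). With the replicate block it was 16 (5 higher and 11 lower, the 3 among them, with KRT17, KRT6A, KRT14, KRT5, KRT6B and DSP lower). The labels do not say whether the replicate numbers pair the samples, and the correlations do not settle it. Of 9 correlations of same-numbered libraries 1 was above 0.1 (-0.0217 to 0.119). Yet each induced library correlated best with its own number at the other time, a hint from the data and not from the design. These are 3 correlations (0.0716, 0.119 and 0.0819), each seen from both times. They were taken on deviations from the means of 3 libraries, so they are not independent of each other. In SKMEL2 the count, 0 as reported, was 5 with DESeq2, 135 with no filter and 0 to 1 when 1 library was left out. Between lines it was 2 with DESeq2 and 176 with no filter. Against uninduced cells the 31 genes at 6 h became 321 with no filter, 5 with all 18 libraries and 16 to 33 when 1 library was left out (16 without uninduced replicate 1, 17 without replicate 3 at 6 h, 20 without uninduced replicate 3), and the 44 at 18 h became 71 with DESeq2, 359 with no filter, 9 with all 18 libraries and 25 to 30 when 1 was left out (25 without uninduced replicate 1). PPP2R3B was called with DESeq2 (0.1872) and with no filter (0.1911). Calls with no filter need caution. By edgeR's test KRT5 then had a standard error of 0.15 (adjusted p = 1.86e-63), against 1.15 (0.885) in the fit reported. Yet its 6 h and 18 h libraries overlapped. Of the 197 genes called with no filter, 127 were also tested in the fit reported, where 3 were called. C21orf91 turned sign without the 2 libraries with the most KRT5 counts (-0.000511), and KRT5 and KRT14 did so when 1 library was left out, with log2 fold changes from -6.802 without replicate 3 at 18 h to 0.7958 without replicate 3 at 6 h for KRT5 and from -5.746 to 0.5853 for KRT14. Of 86 named genes these 3 changed sign in any of 16 alternatives. The causes were not tested. The median standard error was 0.0706 over all genes and 0.0494 over those above 10 CPM, so the size of difference that could be detected depended on the level of the gene.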

Other observations

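Replicate 3 of each induced SKMEL30 group held further transcripts of stratified epithelium, which were chosen after their values were seen. KRT6A, a keratin of activated epidermis, had expected counts of 37.9, 0 and 993 at 6 h and of 3.4, 0 and 125 at 18 h. KRT17 had 26, 2 and 617 at 6 h and 2, 1 and 87 at 18 h. DSP, which encodes the desmosome protein desmoplakin, had 13, 4 and 381 at 6 h and 5, 2 and 59 at 18 h. In uninduced SKMEL30 libraries KRT6A, KRT17 and DSP had between 0 and 6.26. The third replicate was the highest of its group for each of these genes at both times. Whether this bears on the calls was not tested beyond leaving both libraries out.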
